A study of Mus musculus with 12 samples.

Results

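The respiratory chain of the inner mitochondrial membrane was followed at the transcript level in murine LSK cells with BCR::ABL1 switched off or on. Members were the rows of the count tables whose Ensembl identifier belonged to a protein-coding mouse symbol beginning with Nduf (a, b, c, s or v), Uqcr, Cox4 to Cox8, Atp5 (without Atp5s and Atp5sl) or mt-, or equal to Cyc1, Sdha, Sdhb, Sdhc or Sdhd. This gave 107 rows of 56748, with 106 symbols, of which 94 are encoded in the nucleus and 13 in the mitochondrial genome. The pattern also took in 8 Ndufaf genes, which encode assembly factors of complex I and not subunits, and these are described apart. Ndufa4 and Ndufa4l2 were placed with complex IV.

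Donor bone marrow (BM) of SCLtTA/BCR-ABL double transgenic mice (DTG, CD45.2) had been transplanted into irradiated B6.SJL recipients (CD45.1) aged 8 to 12 weeks. In this model the Scl promoter drives the tetracycline transactivator in stem and progenitor cells, and tetracycline (TET) in the drinking water keeps human BCR::ABL1 silent. All recipients carried the transgenes in their donor cells and received TET after transplantation. In the CTRL group (n = 6 libraries) TET was then continued, and in the CML 2wk group (n = 6 libraries) it was withdrawn for 2 weeks. Donor cells came from a pool of frozen marrow of DTG mice of both sexes. From the recipients, CD45.2+ Lin- Sca+ Kit+ (LSK) cells, the marrow cells that include the stem and multipotent progenitors, were sorted for bulk RNA-seq. The methods describe a cohort of recipient mice for each group, of the same size as the number of libraries. Neither they nor the labels say which mouse gave which library, so p-values measure the spread between libraries, which may be technical.

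The respiratory chain passes electrons from NADH (complex I) and succinate (complex II) through ubiquinone, complex III and cytochrome c to oxygen at complex IV, and complex V uses the resulting proton gradient to make ATP. Complexes I, III, IV and V are mosaics of nuclear-encoded and mitochondrially encoded proteins, whereas complex II is nuclear-encoded throughout. Mitochondrial DNA is transcribed as long polycistronic RNAs from both strands and cut into separate mRNAs, tRNAs and rRNAs. In BM, quiescent haemopoietic stem cells are known for a low reliance on oxidative phosphorylation, which rises when they divide or differentiate.

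The libraries held 22804754 to 41832868 counts on genes in CTRL and 16150817 to 25070105 in CML 2wk. A count of 0 allows a level of up to 0.0725 to 0.184 CPM (the counts of a gene scaled to a common library size, with TMM factors), depending on the library and for counting error only. The biological coefficient of variation was 10.8% in CTRL and 32.6% in CML 2wk. The labels name all CTRL recipients male and all CML 2wk recipients female, while the design text says that both sexes were used. Xist was counted at 3794 to 4425 CPM in CTRL and 2183 to 3502 CPM in CML 2wk, which goes against wholly male cells in CTRL. The sorted cells were donor cells from a pool of both sexes, so Xist does not show the sex of the recipients. Labelled sex cannot be told apart from BCR::ABL1 status. Replicate 6 of both groups carries library numbers from a series other than that of replicates 1 to 5, which does not by itself name a sequencing batch. The 8 LSK markers checked, with the defining Kit and Ly6a, were counted in every library. Kit was at 749 ± 45.5 CPM in CTRL and 412 ± 71.1 CPM in CML 2wk (mean ± SD, n = 6) and fell, with a log2 fold change of -0.86 ± 0.10, edgeR adjusted p = 4.68e-06. Ly6a, which encodes Sca-1, was at 34.4 ± 4.08 and 44.8 ± 15.2 CPM (0.38 ± 0.17, edgeR adjusted p = 0.066).

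Most respiratory chain transcripts that could be tested were more abundant after TET withdrawal, from either genome. Of the 89 nuclear-encoded members that passed edgeR's filter on low counts, 79 rose, 2 fell and 8 did not pass the test (edgeR quasi-likelihood test, Benjamini-Hochberg adjusted p under 0.05 over 18438 genes). Over all genes tested, 30.6% rose and 29.0% fell. The median log2 fold change (CML 2wk minus CTRL) of the nuclear-encoded members was 0.88, a 1.84-fold level, against 0.07 over all genes tested. Of the 13 mitochondrially encoded members, 8 could be tested, and 6 of them rose and 0 fell, with a median of 1.12 over the 8 (1 lower at an unadjusted p under 0.05, 1 with DESeq2 and 0 with limma). Groups did not overlap, with every CML 2wk library above every CTRL library, for 66 of the 89 nuclear-encoded and 6 of the 8 mitochondrially encoded members, where 17.0% of all genes behaved so. In the opposite direction 1 nuclear-encoded member did not overlap, against 20.6% of all genes. Not tested, because of low counts, were mt-Nd4l, mt-Co2, mt-Co3, mt-Atp8, mt-Atp6, Cox8b, Ndufa4l2, Cox8c, Cox7b2 and a second identifier of Atp5o.

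Summed over nuclear-encoded members, the lowest, median and highest libraries were at 5948, 6733 and 7284 CPM in CTRL and 9096, 10752 and 13778 CPM in CML 2wk. For mitochondrially encoded members they were at 7957, 8756 and 11825 CPM in CTRL and 22214, 25892 and 28098 CPM in CML 2wk. Neither sum overlapped between groups. No test was made of these sums, which are scores over the members, and the ratios of the group means were 1.64 and 2.67. The ratio of mitochondrially to nuclear-encoded transcripts was 1.09, 1.26 and 1.96 in CTRL and 2.00, 2.36 and 2.95 in CML 2wk (lowest, median, highest), so that the groups were separate by a narrow margin. The mitochondrial sum and this ratio rest on part of the mitochondrial genome, since 5 of its 13 mRNA genes were nearly absent (below). Of mean sums of 9488 CPM in CTRL and 25373 CPM in CML 2wk, mt-Co1 alone had 4176 and 13110 CPM. By complex, the ratio of means for nuclear-encoded members was 1.66 for complex I, 1.17 for complex II, 1.90 for complex III, 1.98 for complex IV and 1.51 for complex V. Only the complex II sum overlapped between groups, as the plot of summed subunit transcripts shows. In bulk samples, fewer cells of a type and less RNA per cell cannot be told apart.

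**Figure D1:**
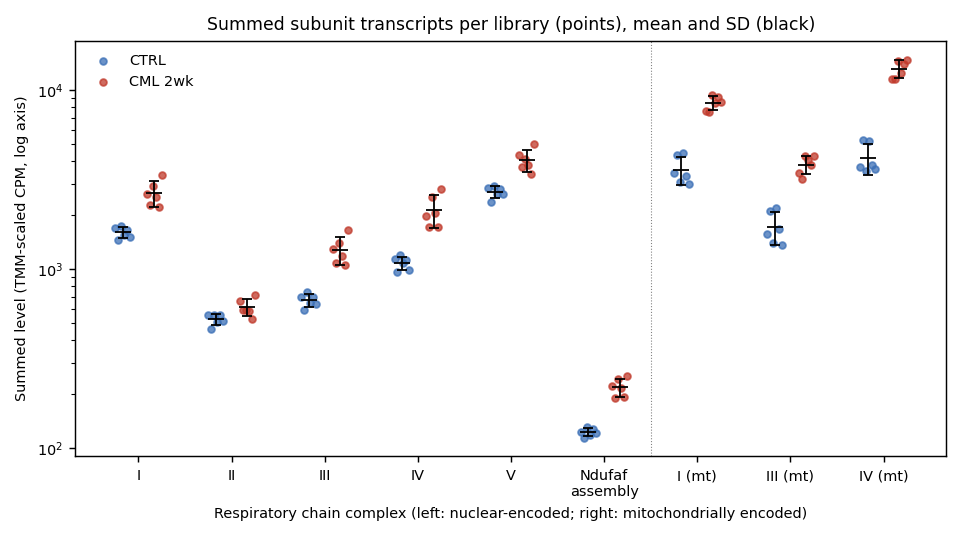
Summed TMM-scaled CPM (log axis) of the members of each complex in each of the 12 libraries, nuclear-encoded on the left and mitochondrially encoded (mt) on the right; points are libraries, black bars the mean ± SD of 6. CML 2wk libraries lie above all CTRL libraries in every set except nuclear-encoded complex II, where CTRL reached 558 and CML 2wk began at 529.9 CPM. The mitochondrially encoded complex V genes are not drawn because both were near 0. Mitochondrially encoded complex IV is in effect mt-Co1 alone, as mt-Co2 and mt-Co3 were near 0 too.

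Libraries of a group differed in level across the members as a whole. CML 2wk replicate 6 had the highest level of its group for 70 of the 89 nuclear-encoded members tested, and CTRL replicate 3 for 59 of 89. CTRL replicate 2 was the lowest CTRL library for 52 of them. The shares of all genes tested that rank these libraries so are not given here. These ranks are therefore not shown to be particular to the members. Without CML 2wk replicate 6 the nuclear-encoded median was 0.76 with 77 members higher, and without replicate 6 of both groups it was 0.74 with 75 higher. CML 2wk replicate 2 stood apart from its group in stromal and mast cell transcripts, and without it 80 nuclear-encoded members were higher, with a median of 0.92.

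**Figure D2:**
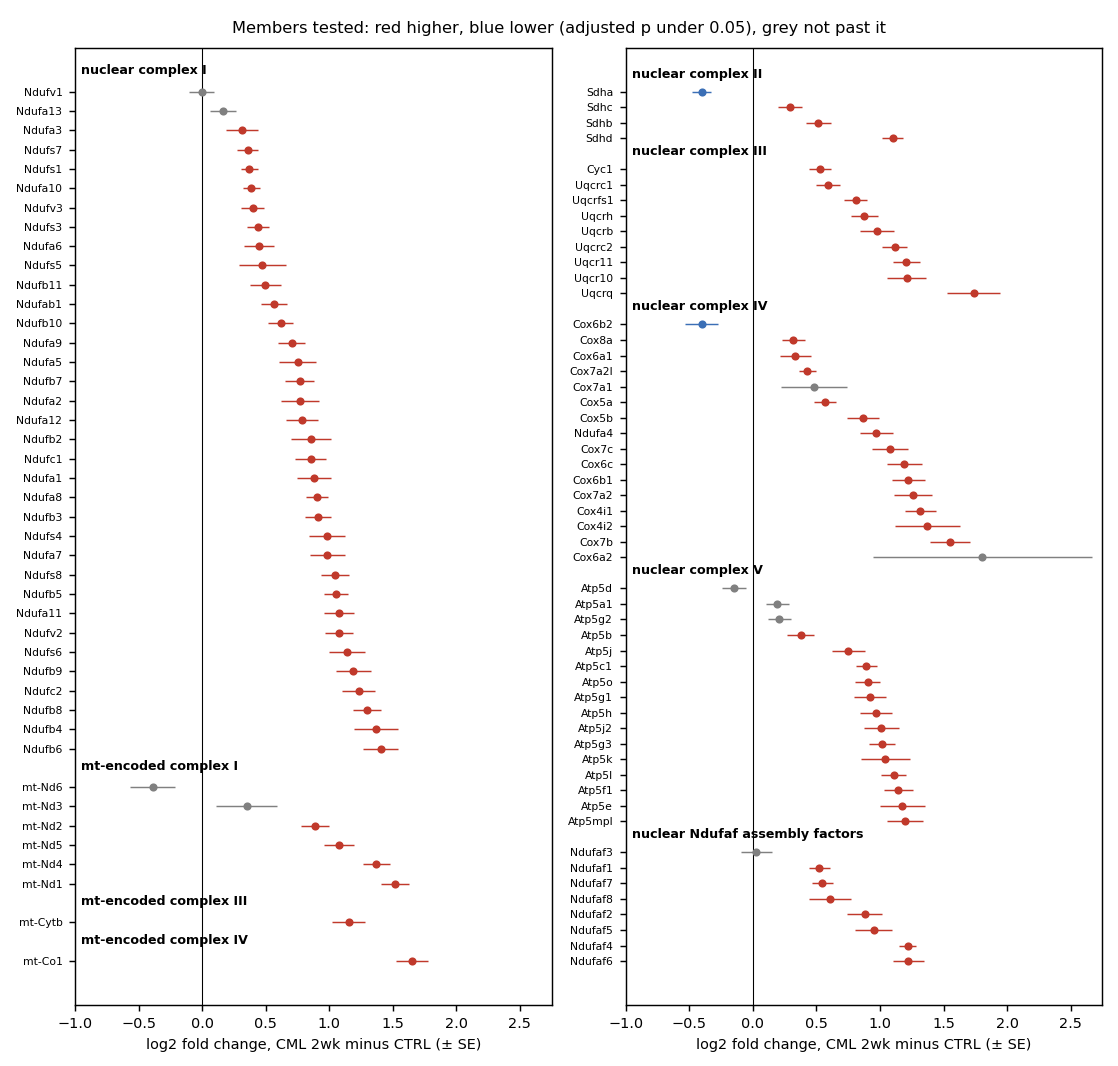
log2 fold change (CML 2wk minus CTRL, x axis) ± SE for 96 of the members tested, grouped by complex and genome of origin and ordered within each group; red is higher and blue lower at an edgeR adjusted p under 0.05, grey is neither. Most points lie right of 0; the blue points are Sdha (-0.40) and Cox6b2 (-0.40), and the point with the widest error is Cox6a2.

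Complex I had 36 nuclear-encoded subunits, of which 34 rose, 0 fell and 2 did not pass. The number lower was also 0 at an unadjusted p under 0.05, with DESeq2 and with limma. For each complex and for the Ndufaf genes below, the shares over all genes tested were 30.6% higher and 29.0% lower. Groups did not overlap, with CML 2wk higher, for 17.0% of all genes. The largest rises were in subunits of the membrane arm, which pumps protons. Ndufb6 had 15.8, 17.8 and 18.9 CPM in CTRL and 34.4, 40.9 and 63.1 CPM in CML 2wk (lowest, median, highest), with a log2 fold change of 1.41 ± 0.14, edgeR adjusted p = 7.72e-07. Ndufb4 had 9.66, 11.2 and 12.0 CPM in CTRL and 18.0, 25.5 and 40.1 CPM in CML 2wk and a log2 fold change of 1.37 ± 0.17, edgeR adjusted p = 8e-06. In both genes every CML 2wk library was above every CTRL library. All 10 Ndufb genes rose, with a median of 0.98, as did both Ndufc genes (Ndufc1 at 0.86 and Ndufc2 at 1.23).

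The 7 nuclear-encoded core subunits carry the flavin and the iron-sulphur clusters or form the quinone site. Their median log2 fold change was 0.37, and that of the 29 accessory subunits 0.85. Most core subunits have longer coding sequences than the accessory ones, and short genes rose as a whole (below). With the trends of coding length and GC content removed, the 7 had 0.32 (Ndufv1) to 1.06 (Ndufs8), where the median of all nuclear-encoded members was 0.60. The difference between core and accessory subunits was not tested. Ndufv1, the flavin-bearing subunit that oxidizes NADH, had 70.8, 81.7 and 85.2 CPM in CTRL and 64.0, 78.6 and 99.1 CPM in CML 2wk. Its groups overlapped, and its log2 fold change was -0.0044 ± 0.10, edgeR adjusted p = 0.974. Its partner Ndufv2, a small iron-sulphur protein, had 77.7, 82.7 and 89.3 CPM in CTRL and 137, 169.8 and 225 CPM in CML 2wk without overlap (1.08 ± 0.11, edgeR adjusted p = 1.13e-06). Both proteins belong to the NADH-oxidizing module, and the difference between their changes was not tested.

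Ndufs1, the largest iron-sulphur subunit, had 86.4, 101 and 103 CPM in CTRL and 114, 126 and 144 CPM in CML 2wk (0.37 ± 0.068, edgeR adjusted p = 0.000269), and its groups did not overlap. Changes of similar size were measured for Ndufs7 (0.36 ± 0.083, edgeR adjusted p = 0.00169), which holds the last iron-sulphur cluster before quinone, and for Ndufs3 (0.44 ± 0.086, edgeR adjusted p = 0.00048). Ndufs8, which holds the pair of iron-sulphur clusters before that one, rose most among the core with Ndufv2 (1.05 ± 0.11, edgeR adjusted p = 1.43e-06). At the low end of the accessory subunits stood Ndufa13, also known as Grim19, with 46.0, 51.5 and 60.7 CPM in CTRL and 46.3, 57.7 and 77.0 CPM in CML 2wk and overlapping groups (0.16 ± 0.10, edgeR adjusted p = 0.183). It passed as higher with upper-quartile factors (0.24, adjusted p = 0.0433).

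Complex II, which also belongs to the tricarboxylic acid cycle, was split. Sdha, the flavoprotein that oxidizes succinate, had 253, 286 and 306 CPM in CTRL and 194, 208 and 252 CPM in CML 2wk. Every CML 2wk library lay below every CTRL library, though by a narrow margin, and Sdha fell (-0.40 ± 0.075, edgeR adjusted p = 0.000342). It was the nuclear-encoded member whose groups did not overlap in the lower direction. Sdhd, a membrane anchor, went the other way, with 87.0, 94.6 and 103 CPM in CTRL and 165, 205 and 242 CPM in CML 2wk and no overlap (1.10 ± 0.086, edgeR adjusted p = 1.38e-07). The iron-sulphur subunit Sdhb had 65.9, 77.0 and 88.1 CPM in CTRL and 93.2, 107 and 144 CPM in CML 2wk, without overlap (0.52 ± 0.10, edgeR adjusted p = 0.000357), and the other anchor, Sdhc, had 59.9, 72.6 and 78.2 CPM in CTRL and 74.0, 84.6 and 109 CPM in CML 2wk, with overlap (0.29 ± 0.094, edgeR adjusted p = 0.0156). The call for Sdhc was lost without replicate 6 of both groups (adjusted p = 0.0592) and without a filter on low counts (0.0843). With the coding length trend removed (below), Sdha had -0.14 (edgeR adjusted p = 0.153) and Sdhc 0.09 (0.299). With the GC trend removed too they had -0.18 (0.0569) and 0.06 (0.462). Neither gene passed in these 2 settings, which were chosen after the data had been seen. The 4 proteins are present in equal number in the complex, and their transcript changes ran from -0.40 to 1.10 on the log2 scale.

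In complex III, all 9 nuclear-encoded members rose, and all 9 were without overlap between groups (0 lower at an unadjusted p under 0.05, with DESeq2 and with limma). Uqcrq, a small subunit of the membrane part that lies near cytochrome b, had 26.7, 32.8 and 34.6 CPM in CTRL and 63.9, 97.7 and 186 CPM in CML 2wk, the largest change of the complex (1.74 ± 0.21, edgeR adjusted p = 5.49e-06). The highest value belonged to CML 2wk replicate 6. Uqcr10 (1.21 ± 0.15, edgeR adjusted p = 9.55e-06) and Uqcr11 (1.21 ± 0.10, edgeR adjusted p = 3.15e-07), further small subunits, came next. Of the larger core proteins, Uqcrc2 had 97.4, 113 and 122 CPM in CTRL and 207, 232 and 314 CPM in CML 2wk (1.11 ± 0.10, edgeR adjusted p = 3.91e-07), and Uqcrc1 had 131, 144 and 165 CPM in CTRL and 188, 212 and 280.0 CPM in CML 2wk (0.59 ± 0.092, edgeR adjusted p = 6.84e-05). Of the redox carriers, the Rieske protein Uqcrfs1 rose by 0.81 ± 0.093 and cytochrome c1 (Cyc1) by 0.53 ± 0.088 on the log2 scale (edgeR adjusted p = 4.03e-06 and 0.000123). Cyc1 had the smallest change of the 9.

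Complex IV had 20 nuclear-encoded members by name, of which 16 could be tested: 13 rose, 1 fell and 2 did not pass. Cox4i1, the regulatory subunit that binds ATP, had 148, 172 and 188 CPM in CTRL and 326, 395 and 578 CPM in CML 2wk, with no overlap (1.32 ± 0.12, edgeR adjusted p = 5.6e-07). Cox7b rose more, from 82.4 to 224 CPM (medians), again with no overlap (1.55 ± 0.16, edgeR adjusted p = 1.44e-06). Cox5a, a subunit of the matrix side, rose by 0.57 ± 0.087 (edgeR adjusted p = 5.41e-05). Cox8a was at the low end of the rises, with 93.3, 104 and 111 CPM in CTRL and 109, 122 and 166 CPM in CML 2wk and overlapping groups (0.32 ± 0.092, edgeR adjusted p = 0.00812, and 0.0502 without a filter on low counts).

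Several complex IV subunits have a second isoform known from muscle, lung or testis, and these were compared per length of coding sequence. Cox4i1 was at 335 in CTRL and 834 in CML 2wk CPM per kb of coding sequence (group means), and Cox4i2, the isoform associated with lung and hypoxia, at 1.35 in CTRL and 3.55 in CML 2wk. Cox4i2 nevertheless rose, having 0.524, 0.663 and 0.906 CPM in CTRL and 1.03, 1.85 and 2.88 CPM in CML 2wk (lowest, median, highest), without overlap (1.37 ± 0.25, edgeR adjusted p = 0.000287), on 130 counts in all CTRL libraries and 218 in all CML 2wk libraries. Cox6b1 and its testis isoform Cox6b2 went in opposite directions. Cox6b1 had 61.1, 75.4 and 84.9 CPM in CTRL and 127, 186 and 211 CPM in CML 2wk and rose (1.22 ± 0.13, edgeR adjusted p = 2.06e-06), whereas Cox6b2 had 10.5, 11.7 and 12.9 CPM in CTRL and 7.42, 8.15 and 12.2 CPM in CML 2wk and fell (-0.40 ± 0.13, edgeR adjusted p = 0.0133). The groups overlapped for Cox6b2 and not for Cox6b1.

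Cox6a1 had 56.6, 64.6 and 73.6 CPM in CTRL and 61.8, 79.0 and 114 CPM in CML 2wk, with overlap (0.34 ± 0.12, edgeR adjusted p = 0.03). This call was lost without CTRL replicate 2 (adjusted p = 0.0671), 4 (0.0591) or 6 (0.0705), without CML 2wk replicate 1 (0.058), 3 (0.051) or 6 (0.0667), without replicate 6 of both groups (0.12), and without a filter on low counts (0.105). Its muscle isoform Cox6a2 had 1.47, 1.89 and 3.14 CPM in CTRL and 0.863, 1.09 and 36.2 CPM in CML 2wk. The high value was CML 2wk replicate 6 alone, the next library of its group having 2.70 CPM, and without that library the log2 fold change turned from 1.80 ± 0.86 (edgeR adjusted p = 0.0841) to -0.59 (adjusted p = 0.116). The remaining pairs kept the ubiquitous isoform far above the tissue-restricted one. Cox7a2 rose (1.26 ± 0.15, edgeR adjusted p = 5.27e-06) at 238 in CTRL and 569 in CML 2wk CPM per coding kb, and Cox7a1, of heart and muscle, had 5.36 in CTRL and 7.47 in CML 2wk with overlapping groups (0.48 ± 0.26, edgeR adjusted p = 0.127, and 0.0449 without CML 2wk replicate 6). Cox7a2l, which joins complexes III and IV in supercomplexes, rose by 0.43 ± 0.068 (edgeR adjusted p = 8.07e-05).

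Ndufa4, a subunit of complex IV despite its name, was at 483 in CTRL and 946 in CML 2wk CPM per coding kb and rose (0.97 ± 0.13, edgeR adjusted p = 1.57e-05). Its hypoxia-linked paralog Ndufa4l2 was at 0.86 in CTRL and 2.66 in CML 2wk and was not tested, with 40 counts in CTRL and 83 in CML 2wk. Cox8b was at 0.859 in CTRL and 1.61 in CML 2wk CPM per coding kb, and Cox8c and Cox7b2, known from testis, had 0 counts in all 12 libraries.

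**Figure D3:**
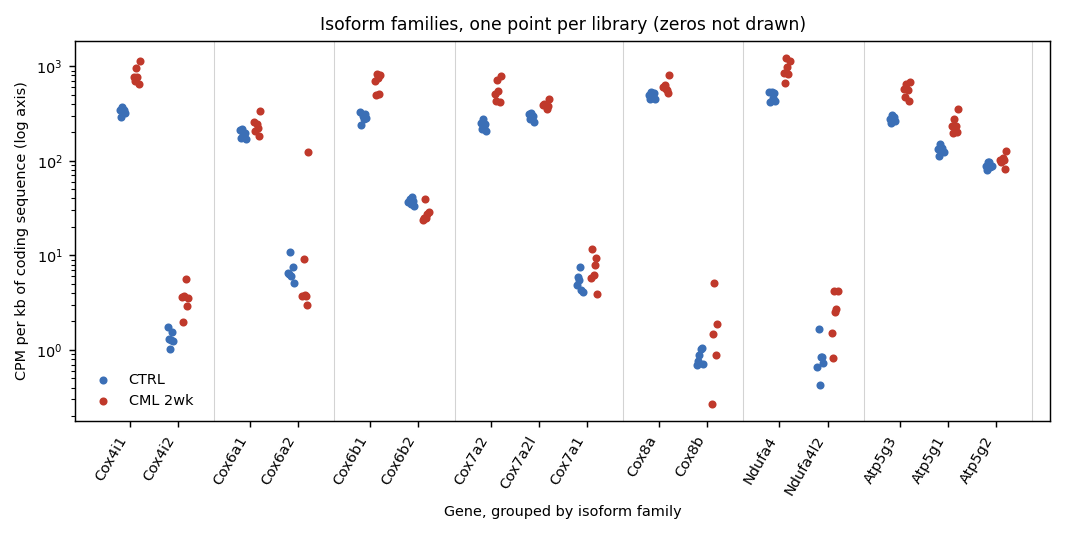
CPM per kb of coding sequence (log axis) for isoform families of complex IV and for the 3 genes of subunit c of complex V, with 1 point per library (CTRL blue, CML 2wk red; zeros are not drawn). In complex IV the ubiquitous isoform is first in each family and far above the others, except for Cox7a2l. Cox7a2l is at 293 in CTRL and 394 in CML 2wk (group means), and Cox7a2 at 238 and 569. In Cox6a2, 1 red point, from CML 2wk replicate 6, lies apart, and Cox6b2 is lower in CML 2wk while Cox6b1 is higher.

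Complex V had 17 rows in the nuclear genome, 16 of them tested, with 13 higher, 0 lower and 3 that did not pass; the number lower was also 0 at an unadjusted p under 0.05 and with DESeq2 and limma. The F1 head, which makes ATP, had a median log2 fold change of 0.37 over its 5 subunits, and the other 11 subunits tested had 1.01. With the trends of coding length and GC content removed (below), Atp5a1 had 0.53, Atp5b 0.62, Atp5e 0.71 and Atp5d -0.11. The median of all nuclear-encoded members was then 0.60, and the difference between the F1 head and the other subunits was not tested. Atp5a1 (alpha) had 637, 740.3 and 786 CPM in CTRL and 722, 812 and 963 CPM in CML 2wk, with overlap (0.19 ± 0.088, edgeR adjusted p = 0.0718). It passed the test with upper-quartile factors (adjusted p = 0.00742), with library totals alone (0.0251) and without CML 2wk replicate 3 (0.036) or 5 (0.0491). Atp5b (beta), the catalytic subunit, had 674, 796 and 835 CPM in CTRL and 805, 972 and 1245 CPM in CML 2wk, also with overlap (0.37 ± 0.11, edgeR adjusted p = 0.0077), and did not pass without a filter on low counts (adjusted p = 0.0503).

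Atp5d (delta) had 92.1, 108 and 120.2 CPM in CTRL and 72.2, 97.6 and 110.2 CPM in CML 2wk, with overlap, and was the lowest of the complex (-0.15 ± 0.10, edgeR adjusted p = 0.193). With the trend of coding length over all coding genes removed, an adjustment chosen after the data had been seen, it passed as lower (-0.34, adjusted p = 0.00592). The small Atp5e (epsilon), its neighbour in the central stalk, had 54.8, 61.9 and 65.8 CPM in CTRL and 81.3, 128 and 193 CPM in CML 2wk and rose without overlap (1.18 ± 0.18, edgeR adjusted p = 4.96e-05). Atp5mpl, a small protein that copurifies with the membrane part, had 39.6, 48.4 and 53.4 CPM in CTRL and 78.9, 110.2 and 145 CPM in CML 2wk (1.20 ± 0.14, edgeR adjusted p = 5.13e-06). Atp5g1, Atp5g2 and Atp5g3 encode the same mature subunit c of the rotating ring from different precursors. Atp5g3 was at 277 in CTRL and 559.8 in CML 2wk CPM per coding kb and rose (1.02 ± 0.10, edgeR adjusted p = 1.29e-06), Atp5g1 was at 132 in CTRL and 249 in CML 2wk and rose (0.92 ± 0.13, edgeR adjusted p = 2.02e-05), and Atp5g2 was at 89.3 in CTRL and 103 in CML 2wk and did not pass (0.21 ± 0.091, edgeR adjusted p = 0.062). Atp5g2 did pass with upper-quartile factors (adjusted p = 0.0118), with library totals alone (0.0218) and without CML 2wk replicate 5 (0.0112). The order of the 3 genes was the same in both groups. Atpif1, the inhibitor of complex V that is no member by its symbol, had 64.0, 77.3 and 85.1 CPM in CTRL and 108, 139.8 and 205 CPM in CML 2wk and rose (0.96 ± 0.13, edgeR adjusted p = 2.17e-05).

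Of the 8 Ndufaf assembly factors, 7 rose and 1, Ndufaf3, did not pass, with 8.41, 9.34 and 10.6 CPM in CTRL and 7.62, 9.57 and 12.1 CPM in CML 2wk and overlapping groups (0.03 ± 0.12, edgeR adjusted p = 0.856). Ndufaf4, which acts early in complex I assembly, had 26.4, 30.2 and 32.2 CPM in CTRL and 62.0, 69.1 and 77.7 CPM in CML 2wk with no overlap (1.22 ± 0.067, edgeR adjusted p = 1.71e-08), and Ndufaf6 had 9.28, 9.95 and 12.4 CPM in CTRL and 20.5, 22.1 and 32.0 CPM in CML 2wk with no overlap (1.22 ± 0.12, edgeR adjusted p = 8.39e-07).

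In the mitochondrial genome, the genes that could be tested changed unequally. mt-Co1, the catalytic subunit of complex IV that reduces oxygen, had 3509, 3746 and 5236 CPM in CTRL and 11515, 13176 and 14720.0 CPM in CML 2wk, with no overlap (1.65 ± 0.12, edgeR adjusted p = 1.01e-07). mt-Cytb, cytochrome b of complex III, had 1359.7, 1629 and 2186 CPM in CTRL and 3179, 3918 and 4286 CPM in CML 2wk (1.15 ± 0.13, edgeR adjusted p = 2.83e-06). In complex I, mt-Nd1, at the quinone site, had 972, 1221 and 1494 CPM in CTRL and 3175, 3327 and 3860.4 CPM in CML 2wk (1.52 ± 0.11, edgeR adjusted p = 7.71e-08). All 3 genes were without overlap, and their CML 2wk libraries were close to one another. The membrane arm subunits mt-Nd4 (1.37 ± 0.11, edgeR adjusted p = 1.53e-07), mt-Nd5 (1.08 ± 0.12, edgeR adjusted p = 2.46e-06) and mt-Nd2 (0.89 ± 0.11, edgeR adjusted p = 8.79e-06) rose as well, in order of size.

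mt-Nd6 stood apart. It is encoded on the minus strand of the GRCm38 mitochondrial sequence, while the other 12 mRNA genes are on the plus strand. It had 111, 146 and 233 CPM in CTRL and 106, 121 and 136 CPM in CML 2wk, with overlap, and its log2 fold change was -0.39 ± 0.18, edgeR adjusted p = 0.074. It passed the test as lower without CTRL replicate 1 (-0.48, adjusted p = 0.0343), 5 (-0.48, 0.0309) or 6 (-0.48, 0.0306), without a filter on low counts (-0.46, 0.0481) and with DESeq2 (-0.41, 0.0419). The fall was smaller and did not pass without CTRL replicate 2 (-0.25, adjusted p = 0.192) or 4 (-0.30, 0.167). The same held with upper-quartile factors (-0.32, 0.156), a replicate block (-0.32, 0.134) and limma (-0.21, 0.448). CTRL replicates 2, 3 and 4 had 233, 179 and 209 CPM, and the other CTRL libraries 111 to 113 CPM. As a share of the summed CPM of the 6 mitochondrial mRNAs that rose, mt-Nd6 was 1.27%, 1.60% and 2.30% in CTRL and 0.434%, 0.482% and 0.561% in CML 2wk (lowest, median, highest). The groups of this share did not overlap, and it was chosen after the values of these genes had been seen. Because the 6 genes were taken for having risen, a lower share of a gene that did not rise follows from that choice. mt-Nd6 overlaps the end of mt-Nd5 on the opposite strand, and whether the counting used strand is not given in the sources used here.

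The other 5 mitochondrial mRNA genes were nearly absent from the tables. Over all 12 libraries, mt-Co3 had 50 counts, mt-Atp6 had 30, mt-Nd4l had 19, mt-Co2 had 14 and mt-Atp8 had 4, where mt-Co1 had 2381917. Per kb of coding sequence, mt-Co2 was at 0.0308 in CTRL and 0.114 in CML 2wk CPM and mt-Co1, cotranscribed with it, at 2708 in CTRL and 8502 in CML 2wk. mt-Nd3 was low too, at 12.9 in CTRL and 16.4 in CML 2wk CPM per coding kb, and its groups overlapped (0.35 ± 0.24, edgeR adjusted p = 0.216). Of these 6 genes, all but mt-Atp8 have a nuclear copy on chromosome 1 in GENCODE M21 that is nearly or wholly identical: mt-Co3 (Gm28437), mt-Atp6 (Gm10925), mt-Nd4l (Gm10222) and mt-Co2 (Gm28661) with no mismatch in the aligned part, and mt-Nd3 (Gm28438) at 99.7%, each over at least 98.9% of the gene. For mt-Atp8 no nuclear copy was annotated, and it lies in the genome between mt-Co2 and mt-Atp6. mt-Nd1 had no annotated copy, and the nearest copy of mt-Co1 (Gm13340, chromosome 2) was 97.6% identical. mt-Nd4 has a copy (Gm28439) identical over 63.6% of its length. mt-Nd5, which rose, has 1 annotated copy with at least 95% identity over 50% of its length. In all, 8 of the 13 mitochondrial mRNA genes had such a copy.

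Windows of 3 genes and their copies are shown to make visible how close the copies are, from identical in a gene with almost no counts to distinct in the most abundant one. They are 60-base windows of GENCODE M21 transcripts on GRCm38, 5′ to 3′ along the gene, with capitals at positions where the mitochondrial gene and its nuclear copy differ. The first pair, at chrM:8968-9027 (plus strand) and chr1:24613551-24613610 (minus strand), has no capitals, and over 783 aligned bases the genes had 0 mismatches.
mt-Co3: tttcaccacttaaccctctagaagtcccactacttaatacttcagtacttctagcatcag
Gm28437: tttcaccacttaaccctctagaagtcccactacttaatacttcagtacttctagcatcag
The second pair, at chrM:9459-9518 (plus) and chr1:24613060-24613119 (minus), holds the 1 mismatch found in 345 aligned bases.
mt-Nd3: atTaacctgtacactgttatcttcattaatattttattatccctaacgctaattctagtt
Gm28438: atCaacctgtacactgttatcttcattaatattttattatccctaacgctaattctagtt
The third pair, at chrM:6114-6173 (plus) and chr2:22588802-22588861 (minus), holds 2 of the 37 mismatches in 1545 aligned bases.
mt-Co1: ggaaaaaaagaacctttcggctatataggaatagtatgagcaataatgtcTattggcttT
Gm13340: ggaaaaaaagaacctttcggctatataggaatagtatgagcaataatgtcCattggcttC
The copies themselves held few counts (18 for Gm28437, 45 for Gm28438 and 221 for Gm13340, all libraries). How reads that fit several places were counted is not given in the sources used here, and the levels of these genes, mt-Nd3 included, are therefore uncertain. No nuclear-encoded member had an annotated copy with at least 95% identity over 50% of its coding sequence.

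**Figure D4:**
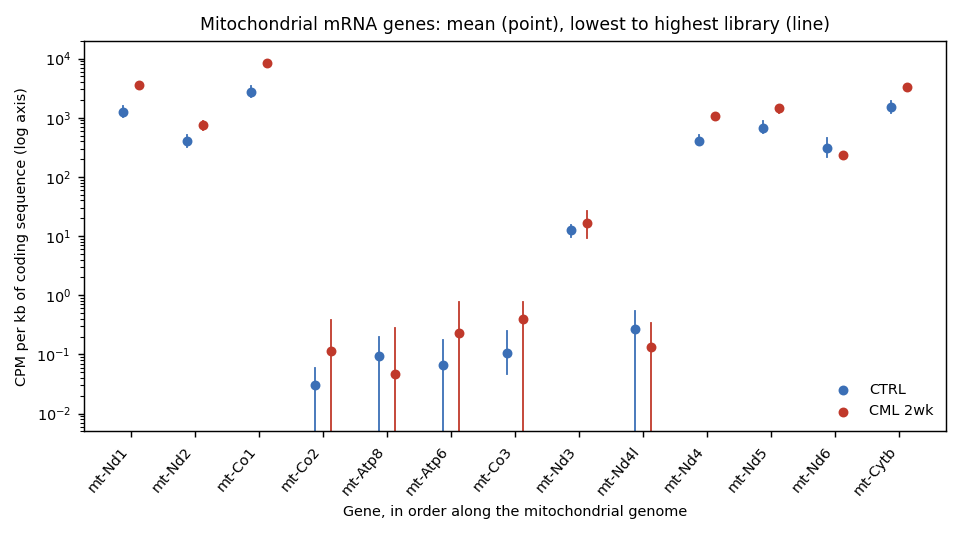
CPM per kb of coding sequence (log axis) of the 13 mitochondrial mRNA genes in genome order, CTRL in blue and CML 2wk in red; points are means of 6 libraries and lines run from the lowest to the highest library, cut at the lower edge where a library is at 0. The run from mt-Co2 to mt-Nd4l lies orders of magnitude below the genes on both sides, and mt-Nd6 is the gene above 100 CPM per kb whose red point is below the blue one.

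The rRNAs of the mitochondrion did not pass the test. mt-Rnr1 had 15.2, 81.0 and 281 CPM in CTRL and 44.5, 170.0 and 456 CPM in CML 2wk (0.98 ± 0.64, edgeR adjusted p = 0.202) and mt-Rnr2 61.1, 154 and 486 CPM in CTRL and 92.6, 329.8 and 794 CPM in CML 2wk (1.01 ± 0.56, edgeR adjusted p = 0.128). The groups overlapped for both, and whether rRNA was depleted before sequencing is not stated. Of 22 mitochondrial tRNA genes and the 2 rRNA genes, 16 could be tested, with 9 higher and 0 lower (0 also at an unadjusted p under 0.05, with DESeq2 and with limma). The shares over all genes were 30.6% higher and 29.0% lower. mt-Tp, which lies on the minus strand next to the control region, had 12.4 ± 1.56 CPM in CTRL and 34.0 ± 9.24 CPM in CML 2wk (mean ± SD, n = 6), with a log2 fold change of 1.46 ± 0.16, edgeR adjusted p = 2.47e-06.

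Respiratory chain subunits are mostly short proteins, and short genes rose in these data as a whole. Among coding genes other than the members, the median log2 fold change was 0.47 at a coding length of up to 300 bases, 0.31 at 301 to 600, 0.06 at 601 to 1200, -0.18 at 1201 to 2400 and -0.38 above 2400. The members had medians of 1.06 (22 genes), 0.87 (44), 0.89 (18) and 0.40 (13) in the first 4 of these classes, higher than the other genes in each. Of the members up to 600 bases long, 20 of 22 and 37 of 44 rose, where 50.3% of all coding genes of that length did, and 48.9% with the members left out. Over the 89 nuclear-encoded members, Spearman's rho between log2 fold change and coding length was -0.36, and -0.31 over 12966 other coding genes. These genes share the same libraries, and the values are descriptions.

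With the trends of coding length and GC content removed over 13063 coding genes, 77 nuclear-encoded members were higher and 1 was lower, with a median of 0.60, where 30.7% of the genes were higher and 28.5% lower. For the mitochondrially encoded members the numbers were 6 and 1, with a median of 0.99. Sdha then had -0.18 (adjusted p = 0.0569), Ndufv1 0.32 (0.0181), Atp5a1 0.53 (0.000281) and mt-Nd6 -0.90 (0.000608). Cox5a (0.13, adjusted p = 0.114), Sdhc (0.06, 0.462) and Cox8a (0.16, 0.112) no longer passed, and neither did Sdha. This adjustment was chosen after the data had been seen, and what gave rise to the length trend was not tested.

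**Figure D5:**
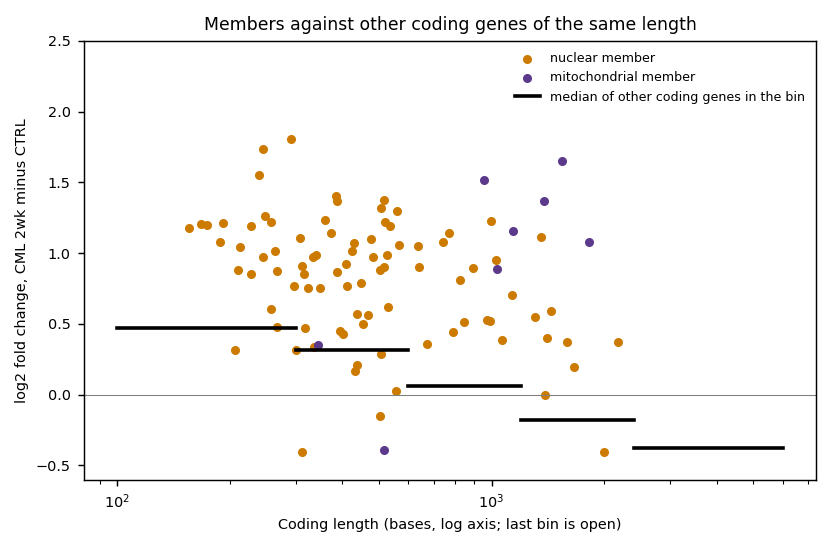
log2 fold change (CML 2wk minus CTRL) against coding length (bases, log axis) for 96 of the members tested, nuclear-encoded in orange and mitochondrially encoded in purple; black lines are the medians of the other coding genes in 5 length classes. Most members lie above the line of their class, while Sdha, Cox6b2, Atp5d and mt-Nd6 are below 0 and Ndufv1 is at 0.

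Many nuclear-encoded respiratory genes are known targets of NRF1, GABPA, YY1 and ERRA. In RefSeq windows of GRCm38.p6, 250 bases before to 50 after the start, 75 of the 94 nuclear-encoded members could be matched, to 74 genes since both identifiers of Atp5o share a window. The NRF1 core GCGCANGCG was found on either strand in 22 of these (29.7%), against 14.1% of the 11161 tested genes with a window and 7.03% of all 27025 genes. The YY1 word AAGATGGCG was in 8 (10.8%, against 3.35% and 1.64%), the GABPA/ETS word CCGGAAGT in 5 (6.76%, against 8.59% and 4.31%) and the ERRA word TCAAGGTCA in 2 (2.70%, against 0.358% and 0.466%). The words do not contain one another, and a match is a string of letters and not a shown binding site. The median log2 fold change was 0.93 for the 22 members with the NRF1 core and 0.80 for the 50 tested members without it, with the lowest values at -0.40 and -0.40 respectively.

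Stretches of 100 bases directly before the start show that the same word stood before genes that rose and a gene that fell. They are from RefSeq on GRCm38.p6, 5′ to 3′ along the gene, with matches to the NRF1 core on either strand in capitals. Ndufb4 (chr16:37654369-37654468, minus strand) and Ndufs6 (chr13:73328483-73328582, minus) had the largest rises among the genes with a match in the stretch. Sdha (chr13:74350241-74350340, minus) was the lowest with a match. Cox7b (chrX:106015600-106015699, plus) was the highest of the genes with none of the 4 words in its window.
Ndufb4: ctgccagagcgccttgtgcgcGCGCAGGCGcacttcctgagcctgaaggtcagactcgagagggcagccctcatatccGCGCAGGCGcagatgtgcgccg
Ndufs6: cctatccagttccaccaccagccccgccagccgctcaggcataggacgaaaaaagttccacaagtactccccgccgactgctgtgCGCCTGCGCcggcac
Sdha: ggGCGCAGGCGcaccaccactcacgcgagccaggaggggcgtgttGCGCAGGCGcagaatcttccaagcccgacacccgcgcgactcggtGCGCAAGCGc
Cox7b: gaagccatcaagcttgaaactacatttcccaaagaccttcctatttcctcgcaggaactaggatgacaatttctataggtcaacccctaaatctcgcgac
Ndufs6 had 22.4, 24.1 and 28.2 CPM in CTRL and 40.4, 50.3 and 75.2 CPM in CML 2wk, with no overlap (1.14 ± 0.14, edgeR adjusted p = 6.57e-06).

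Transcripts of the regulators themselves fell more often than they rose. Of 17 regulators of nuclear-encoded respiratory genes, 14 were tested, with 1 higher and 8 lower and a median log2 fold change of -0.25. Of all genes tested, 30.6% rose and 29.0% fell. Among other coding genes, 43.5% fell at a coding length of 1201 to 2400 bases and 58.8% above 2400. The regulators were not compared with genes of their own length. The one that rose was Esrra, encoding ERRA, with 26.5, 28.8 and 31.5 CPM in CTRL and 34.3, 35.9 and 39.8 CPM in CML 2wk (0.34 ± 0.064, edgeR adjusted p = 0.000335). Pprc1, a coactivator of the PGC-1 family, had 132, 146 and 162 CPM in CTRL and 80.3, 89.6 and 110.5 CPM in CML 2wk and fell (-0.65 ± 0.089, edgeR adjusted p = 1.93e-05). Sp1 (-0.65 ± 0.065, edgeR adjusted p = 1.09e-06) and Gabpb2 (-0.57 ± 0.052, edgeR adjusted p = 4.75e-07), which encodes a partner of GABPA, fell too. Of the factors whose words were searched, and named after their values had been seen, Nrf1 had 0.09 ± 0.055, edgeR adjusted p = 0.18, Gabpa -0.27 ± 0.077, edgeR adjusted p = 0.00833 and Yy1 -0.38 ± 0.052, edgeR adjusted p = 2.06e-05. 

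Genes that keep and express mitochondrial DNA were divided. Of 32 tested, 16 rose and 6 fell, where 30.6% of all genes rose and 29.0% fell. The transcription elongation factor Tefm (1.41 ± 0.11, edgeR adjusted p = 1.13e-07), the mRNA-stabilizing Slirp (1.36 ± 0.13, edgeR adjusted p = 6.7e-07) and Fastkd2 (1.31 ± 0.092, edgeR adjusted p = 6.63e-08) rose most. Tefm had 8.48, 9.35 and 10.5 CPM in CTRL and 20.4, 24.9 and 29.2 CPM in CML 2wk, without overlap. The mitochondrial RNA polymerase Polrmt (-0.59 ± 0.077, edgeR adjusted p = 1.42e-05), the DNA polymerase Polg (-0.71 ± 0.075, edgeR adjusted p = 1.87e-06) and Fastk, which is known to be needed for mt-Nd6 mRNA (-0.82 ± 0.081, edgeR adjusted p = 8.92e-07), fell. Fastk had 32.3, 35.4 and 37.6 CPM in CTRL and 18.3, 19.1 and 24.1 CPM in CML 2wk, and every CML 2wk library was below every CTRL library.

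Of the 55 assembly factors tested for all complexes, 39 rose and 3 fell, with a median of 0.51. The shares over all genes were 30.6% higher and 29.0% lower. Without those that have an Ndufaf name, 32 of 47 rose, 3 fell and 12 did not pass, with a median of 0.44. Uqcc2, needed for cytochrome b, had 22.7, 25.3 and 28.0 CPM in CTRL and 42.7, 57.0 and 91.9 CPM in CML 2wk (1.30 ± 0.16, edgeR adjusted p = 6.93e-06), while Coa5 (-0.36 ± 0.074, edgeR adjusted p = 0.00074), Cox15, which makes haem a (-0.28 ± 0.082, edgeR adjusted p = 0.00934), and Dmac2 (-0.22 ± 0.065, edgeR adjusted p = 0.00893) fell.

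Among the mobile carriers and partners of the chain, 21 of 30 tested genes rose and 5 fell (median 0.43). For this list and the next, the shares over all genes were 30.6% higher and 29.0% lower. Cycs, cytochrome c itself, had 37.5, 44.4 and 48.4 CPM in CTRL and 57.8, 92.2 and 133 CPM in CML 2wk, without overlap (1.08 ± 0.15, edgeR adjusted p = 3.08e-05). The ATP/ADP exchanger Slc25a5 had 372, 442 and 481 CPM in CTRL and 834, 957 and 1153 CPM in CML 2wk (1.15 ± 0.089, edgeR adjusted p = 1.22e-07), and Sqor, which feeds electrons from sulphide to ubiquinone, rose (1.15 ± 0.25, edgeR adjusted p = 0.00103). The uncoupling protein Ucp2 had 355, 411 and 421 CPM in CTRL and 188, 229.6 and 289.6 CPM in CML 2wk and fell (-0.77 ± 0.088, edgeR adjusted p = 3.86e-06), as did Coq8a (-0.59 ± 0.12, edgeR adjusted p = 0.000505) and Coq10a (-0.58 ± 0.11, edgeR adjusted p = 0.000484), of ubiquinone synthesis and handling. Of 22 genes for mitochondrial import, chaperones, fusion and fission, 15 rose and 3 fell (median 0.49). The cochaperonin Hspe1 (1.51 ± 0.18, edgeR adjusted p = 4.48e-06) and the import components Timm23 (1.33 ± 0.11, edgeR adjusted p = 2.7e-07) and Tomm20 (1.20 ± 0.091, edgeR adjusted p = 1.04e-07) rose most, and Dnm1l (-0.27 ± 0.056, edgeR adjusted p = 0.000871), Lonp1 (-0.26 ± 0.069, edgeR adjusted p = 0.00529) and Mfn1 (-0.17 ± 0.065, edgeR adjusted p = 0.0345) fell.

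Markers of other blood and marrow cell types were measured in the same libraries, where 30.6% of all genes rose and 29.0% fell. Of 10 mast cell and basophil markers 7 rose and 1 fell, and their summed level was 318 to 431 CPM in CTRL and 503 to 2701 CPM in CML 2wk, highest in replicate 2. Of 12 erythroid and megakaryocyte markers 0 rose (1 at an unadjusted p under 0.05, 0 with DESeq2 and with limma) and 11 fell, with sums of 427 to 488 CPM and 139 to 328 CPM. Of 11 granulocyte markers 5 rose and 5 fell (4 and 1 with limma's sample weights), with overlapping sums of 2456 to 4811 CPM and 3216 to 8667 CPM, highest in CML 2wk replicate 6. Of 10 monocyte and macrophage markers 3 rose and 2 fell, with overlapping sums of 512 to 691 CPM and 449 to 765 CPM. Of 12 stromal markers tested 4 rose and 0 fell (7 and 0 with DESeq2, 0 and 2 with limma's sample weights; 0 fell at an unadjusted p under 0.05), with overlapping sums of 269 to 316 CPM and 219 to 1246 CPM, highest in replicate 2. Of 11 markers of the negative lineage gate 1 rose and 6 fell, with sums of 109 to 152 CPM and 98.5 to 209 CPM. No marker of these lists was at 0 in every library, and the stem cell genes Hlf and Mecom fell with log2 fold changes of -1.64 ± 0.14 and -0.83 ± 0.11 (edgeR adjusted p = 2.35e-07 and 1.24e-05). The part of cell composition in the rise of respiratory chain transcripts was not tested.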

How the data were processed

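Bulk RNA-seq counts of 12 LSK libraries (6 CTRL, 6 CML 2wk) were analysed; groups were taken from the sample titles. The authors deposited raw counts per Ensembl gene, without normalization. The submitters' processing notes name FastQC 0.11.9, fastp 0.23.2, STAR 2.7.10a, featureCounts 2.0.1, DESeq2 1.36.0 and GRCm39, whereas the study's methods name Trim Galore!, HISAT2 and a human build; which were used here, the annotation release, the strand setting and the handling of multiply mapping reads are not given in the sources used here. Symbols came from GENCODE M21 (GRCm38) by identifier (52073 of 56748 matched), and its coordinates and sequences are used only for that build. Members and lists were chosen with earlier results of these data known. 0 entries named no gene.

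CML 2wk and CTRL were compared in R 4.3.3 with edgeR 4.0.16 (filterByExpr, TMM, glmQLFit and glmQLFTest) over 18438 genes; p-values were adjusted by the Benjamini-Hochberg method over all of these and called under 0.05. Fold changes are coefficients on the log2 scale (± SE); levels are CPM. Alternatives were DESeq2 1.42.0, limma 3.58.1 (voom with sample weights), other scalings, no filter, a replicate block, stricter thresholds and leaving out libraries, and, chosen after seeing the data, removal of coding length and GC trends. Copies were sought with BLAST+ 2.17.0. Figures used Python 3.11.15 and matplotlib 3.10.9. Libraries differed beyond sampling noise (lowest chi-square per degree of freedom 4.07).

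Named were the 13 mitochondrial mRNA genes, the core subunits and isoform pairs, and, by complex, the 2 nuclear-encoded members with the highest and the 2 with the lowest fold change at a mean log2 CPM of at least 1; from other lists, the 3 highest and 3 lowest past the threshold. 1 gene of this rule is not reported here, and genes outside the rule are said to be so or appear where a list or motif names them. Counts were simulated for this comparison (18438 genes), with the same dispersion for all genes. On these, edgeR called 9 of 100 genes changed by 0.5 and 86 of 100 changed by 1 on the log2 scale, and 3 unchanged genes.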

Additional observations from a re-analysis of the deposited data

Results flagged for a closer look

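In 122 groups of 6 values (the named genes and the summed levels, in each group of libraries), 3 had a library far from the other 5 by Dixon's criterion, where chance gives about 6.1. Cox6a2 was at 36.2 CPM in CML 2wk replicate 6, and the next library of that group was at 2.70 CPM. Sdhb was at 144 CPM in the same library, with the next at 108 CPM. Uqcrq was at 26.7 CPM in CTRL replicate 2, the lowest of its group, with the next at 31.4 CPM. CML 2wk replicate 6 was also the highest library of its group for 70 of the 89 nuclear-encoded members tested. The share of all genes for which that library was highest is not given here. CML 2wk replicate 6 shares its series of library numbers with CTRL replicate 6, and whether these values go with that series was not tested.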

How the results depend on the processing

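Across 21 other settings and 2 more that were chosen after seeing the data, 69 of the 79 nuclear-encoded members that rose passed the test as higher in every one, and 72 of the 79 in all 21. How often other genes kept their calls is not given here. The number of nuclear-encoded members higher was 73 without a filter on low counts, 82 with upper-quartile factors, 79 with DESeq2 and with limma, 75 at an adjusted p under 0.01 and 64 with a log2 fold change of at least 0.5. Over all genes, the numbers higher and lower were 5637 and 5339 in the main fit of 18438 genes. They were 5393 and 5998 of 34929 without the filter, 6352 and 4752 with upper-quartile factors, and 6161 and 5753 of 26142 with DESeq2. With limma they were 5617 and 5799, and at an adjusted p under 0.01 they were 4227 and 4385. With a log2 fold change of at least 0.5 they were 4335 and 3373. Leaving out each library in turn gave 76 to 81 nuclear-encoded members higher and 2 to 2 lower, 6 to 6 mitochondrially encoded members higher and 0 to 1 lower, and medians of 0.76 to 0.93 (nuclear-encoded) and 1.06 to 1.19 (mitochondrially encoded). Over all genes this gave 5172 to 6070 higher and 5013 to 5937 lower. The number of mitochondrially encoded members lower was 1 (mt-Nd6) without a filter on low counts, with DESeq2, and with the coding length or the coding length and GC trends removed; the cause was not tested.

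The number of nuclear-encoded members lower was 1 at the stricter threshold and with both trends removed, and 0 with a log2 fold change of at least 0.5, by which 3373 genes in all were lower. With both trends removed the nuclear-encoded median was 0.60. Ratios of mean sums were 1.64 to 1.73 and 2.67 to 2.81 over 4 scalings. The numbers in the labels did not pair the libraries: deviations of same-numbered libraries correlated at -0.125 to 0.0679, and 1 of 6 libraries matched its own number best. With a replicate block, 78 nuclear-encoded members were higher and 2 lower (median 0.86), and 6 mitochondrially encoded members were higher.

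Of 49 named genes tested, 33 kept direction and call throughout. Direction turned for Ndufv1, whose value was near 0 (0.068 with upper-quartile factors, 0.0059 with library totals alone, -0.077 to 0.051 without single libraries, 0.32 and 0.12 with both trends or the length trend removed), and for Cox6a2 (-0.052 with the replicate block, -0.18 with limma, -0.59 without CML 2wk replicate 6 against 1.72 to 2.04 without any other library, -0.65 without replicate 6 of both groups). It turned for mt-Nd3 (-0.28) with both trends removed, and for Cox8a (-0.081), Atp5g2 (-0.032) and Ndufa13 (-0.080) with the length trend removed. Without a filter on low counts, Atp5b and Cox8a lost their calls (adjusted p = 0.0503 and 0.0502). With 6 libraries a group, members not passing the test may still differ. Changes of 0.5 on the log2 scale were seldom called in simulated counts, which gave all genes the same dispersion and changed few of them. In the data 59.5% of genes were called. Members with smaller changes passed there, such as Sdhc (0.29) and Ndufs1 (0.37), while Cox7a1 (0.48) did not, so the simulated rate does not describe the members. A further 10 members were below the filter on low counts and were not tested.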
